A study of Homo sapiens with 6 samples.

Results

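DNA replication genes were examined in H69AR cells on day 3 after transfection, in 3 libraries labelled siTREX1 and 3 siCtrl libraries. The genes were a list of 53 names, chosen with earlier results of these data known. The names cover origin licensing, the replicative helicase, the DNA polymerases, the sliding clamp and its loader, single-strand binding and fork protection, nucleotide supply and chromatin assembly. They were found by gene symbol in the deposited table, which holds 52 of them among 27852 named genes. UHRF1 was not analysed here. H69AR is a multidrug-resistant, non-neuroendocrine derivative of the small cell lung cancer line NCI-H69, selected with adriamycin. Cells labelled siTREX1 had received siRNA #1 against TREX1, the cytoplasmic 3′ DNA exonuclease, and siCtrl cells a nonspecific siRNA duplex; all are 1 cell line and 1 siRNA stands for the knockdown. The labels do not state whether replicates were grown and transfected separately; the tests below therefore weigh differences against library-to-library spread that could be purely technical.

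Replication starts when the origin recognition complex, with CDC6 and CDT1, loads the ring of MCM2 to MCM7 on DNA. Together with CDC45 and the GINS complex this ring becomes the active helicase, behind which DNA polymerase alpha and primase lay primers that polymerases epsilon and delta extend on the PCNA clamp. Many of these genes are transcribed as cells enter S phase, under the control of E2F factors, and ribonucleotide reductase and thymidylate synthase supply the building blocks.

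Levels are CPM, the share of a library's counts on a per-million scale, with TMM scaling factors. The deposited estimated counts do not depend on transcript length, but each gene symbol is listed with 1 transcript, for some genes a short form. Levels compared between genes, and sums over genes, are therefore those of the listed entries and may not stand for whole genes. Each library held 16329106 to 22482687 estimated counts in named genes. TREX1 itself went against its label in 1 library: it had 28.4, 16.03 and 18.2 CPM in the libraries labelled siTREX1 replicates 1, 2 and 3, against 22.7, 31.5 and 24.7 CPM in the siCtrl libraries. Replicate 1 labelled siTREX1 lay within the siCtrl range and the other 2 lay below it, and the log2 fold change of -0.33 did not pass the threshold (standard error 0.24, edgeR adjusted p = 0.349). Without that library it was -0.62 (edgeR adjusted p = 0.0499). Among the cell type markers, VIM was at 2512 to 2538 CPM in the libraries labelled siTREX1 and 2500 to 2504 CPM in the siCtrl libraries, and the neuroendocrine markers NEUROD1, CHGA and NCAM1 were at or near 0 in all 6 libraries. INSM1 and SYP, of the same neuroendocrine list, were present, INSM1 at 12.4 to 13.6 CPM in the libraries labelled siTREX1 and 13.6 to 16.8 CPM in the siCtrl libraries, and SYP at 1.88 to 2.51 CPM and 2.42 to 3.01 CPM. REST, KRT8 and KRT18 were called lower, with log2 fold changes of -0.25, -0.25 and -0.59, and their part in the results below was not tested. PTPRC, a marker of immune cells, was at 2.22 CPM at most.

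A gene was called higher or lower at an adjusted p under 0.05 in edgeR's quasi-likelihood test, with the Benjamini-Hochberg adjustment over 13221 genes. Of these genes, 17.8% were called higher, 15.5% lower and 33.3% in either direction. Among the 52 replication genes, 28 were higher in the libraries labelled siTREX1, or 53.8%, and 1, POLD1, was lower. The other 23 were not called. The median log2 fold change of the 52 genes was 0.17, beside -0.02 over all genes tested. Of the 52 log2 fold changes 40 were positive, beside 6339 of those of the 13221 genes tested. Replication genes are well expressed, so genes of the same range of levels are a closer background: of 9405 such genes 23.5% were higher and 17.8% lower, with a median of 0.018. The range is that from the lowest to the highest member, 2.562 to 9.88 in average log2 CPM, and levels within it were not matched. As the list was chosen with earlier results of these data known, its shares are a description. By levels alone, 32 of the 52 had all libraries labelled siTREX1 above all siCtrl libraries, against 25.3% of all genes tested, and 3 had them all below, against 25.2%. In bulk RNA, more cells in S phase and more of these mRNAs per cell cannot be told apart. The paper reports slower growth of H69AR cells after siRNA against TREX1, from cell counts in a separate assay. How that growth relates to these mRNA levels was not tested.

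**Figure D1:**
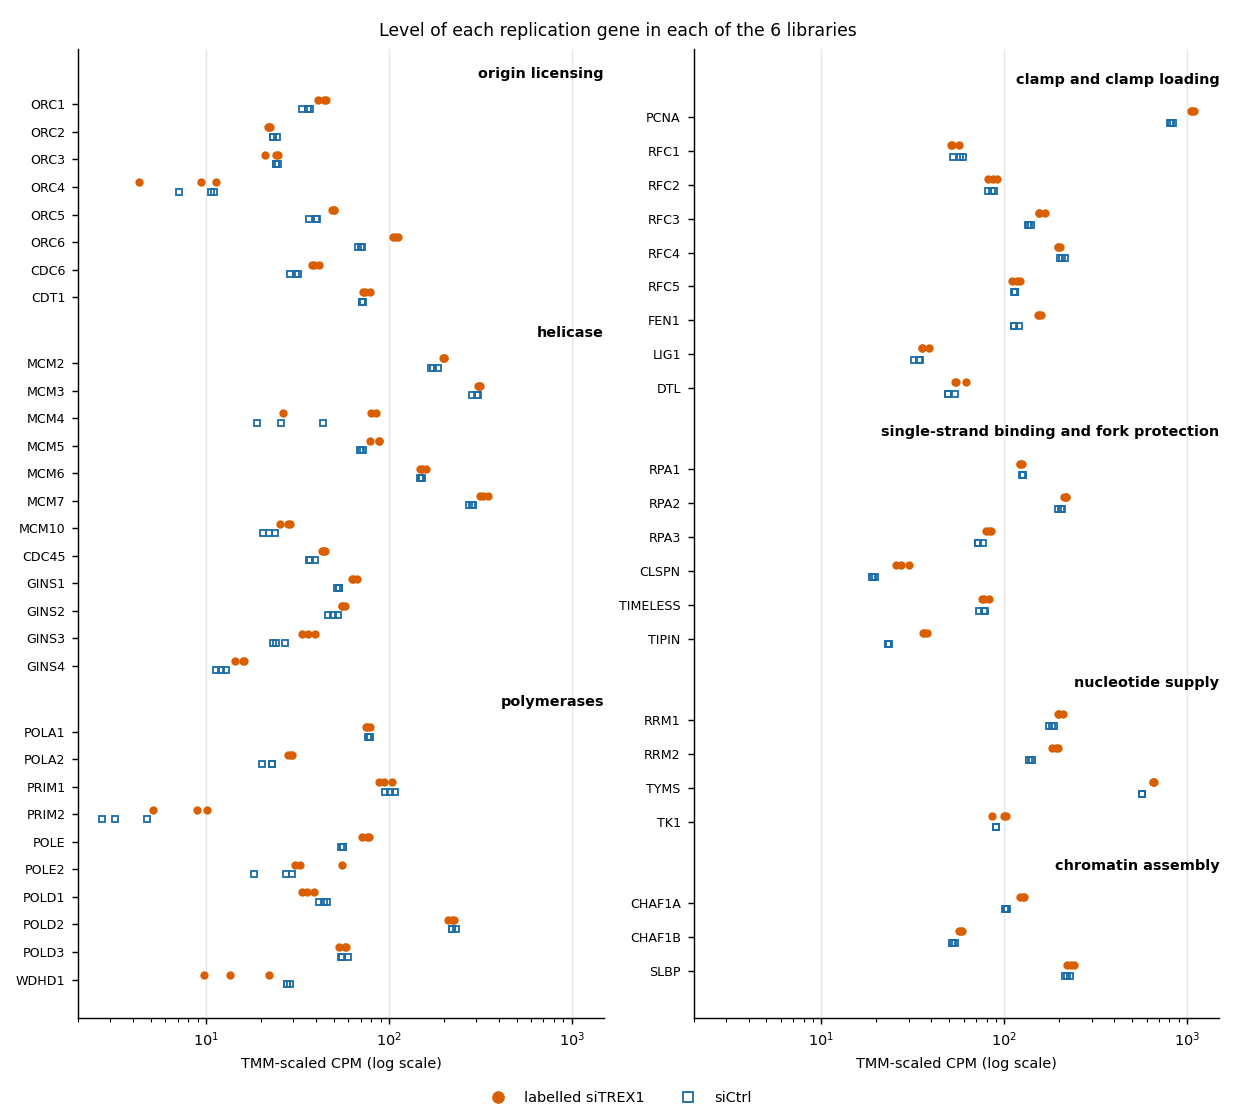
Level of each of the 52 replication genes in each library, in TMM-scaled CPM on a log axis, with filled circles for the 3 libraries labelled siTREX1 above open squares for the 3 siCtrl libraries. PCNA stands highest, near 1063 CPM in the libraries labelled siTREX1 and 821 CPM in the siCtrl libraries, and ORC4, MCM4, PRIM2, POLE2 and WDHD1 show the widest spread.

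**Figure D2:**
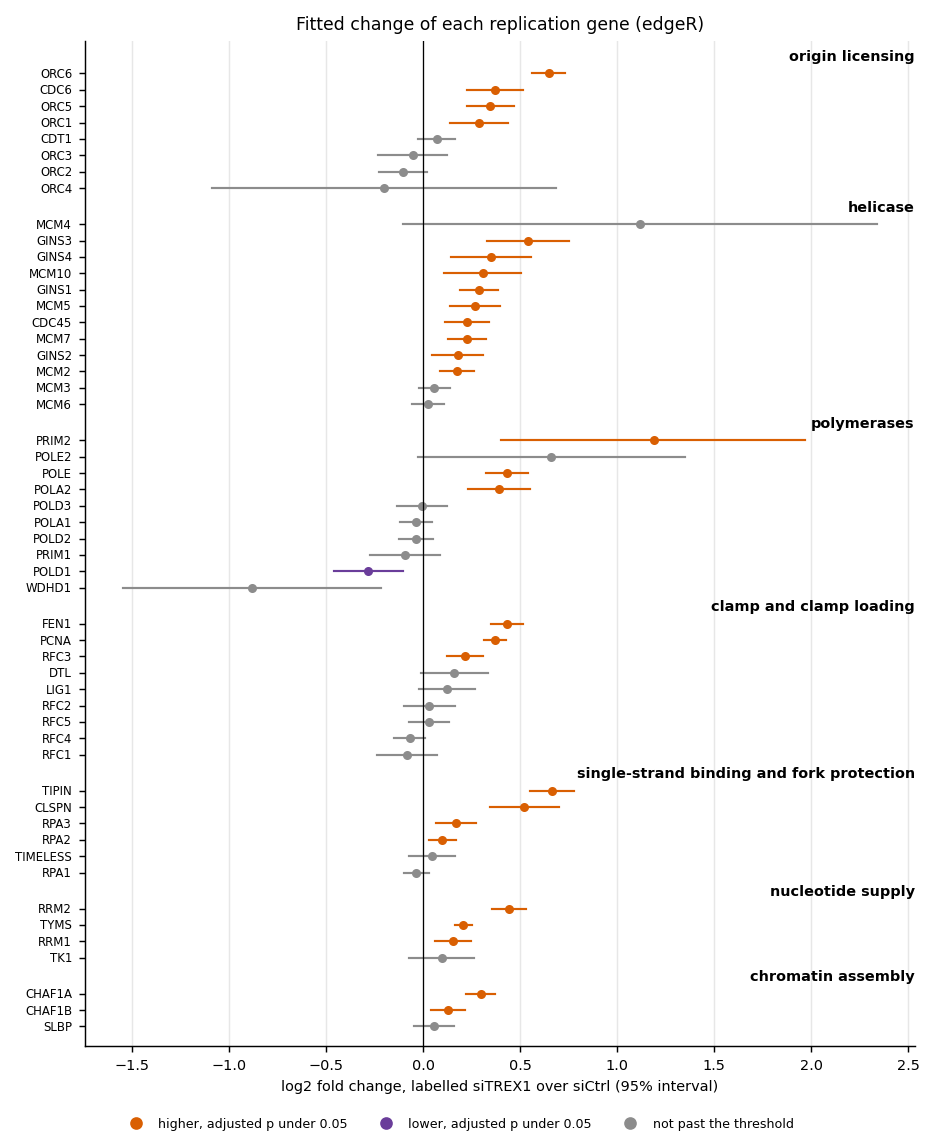
Fitted log2 fold change, labelled siTREX1 over siCtrl, of each gene with its 95% interval from edgeR, ordered by size within each functional group. The 28 genes called higher are orange, POLD1, the 1 gene called lower, is purple, and the 23 others are grey.

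Without the library labelled siTREX1 replicate 1, 23 of the 28 were still called higher, 39 of the 52 log2 fold changes were positive and the median was 0.19. Of 13548 genes tested without it, 1894 were called higher and 1566 lower. ORC1, GINS2, PRIM2, RPA2, CHAF1B and POLD1 were then no longer called, and WDHD1 was called lower.

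Origin licensing genes were higher for 4 of 8 members (50%), beside 23.5% of genes of the same range of levels. ORC6, the smallest subunit of the origin recognition complex, had 109.8, 106 and 112 CPM in the libraries labelled siTREX1, against 71.0, 68.0 and 70.0 CPM in the siCtrl libraries. The groups lay far apart beside a spread of a few CPM within each, and the change was 1.57-fold (log2 fold change 0.65, standard error 0.036, edgeR adjusted p = 0.00016; 0.65 also without the library labelled siTREX1 replicate 1). CDC6, the ATPase that joins the complex at origins, averaged 39.4 ± 1.72 CPM in the libraries labelled siTREX1 and 30.5 ± 1.55 CPM in the siCtrl libraries (SD, n = 3 each; log2 fold change 0.37). ORC5 rose by 0.35 and ORC1 by 0.29 on the log2 scale, with the call of ORC1 lost under 2 of the 15 alternatives tried. ORC2, ORC3 and ORC4 had log2 fold changes of -0.10, -0.05 and -0.20 that passed no threshold, and CDT1, the MCM loading factor, was at 75.1 and 71.6 CPM on average, with a log2 fold change of 0.07 and a 95% interval from -0.03 to 0.17. ORC6 also stood against ORC2 in each library: the ratio was 4.99, 4.88 and 5.03 in the libraries labelled siTREX1, against 3.04, 2.79 and 3.02 in the siCtrl libraries.

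All 12 helicase genes had positive log2 fold changes, as had 6339 of the 13221 genes tested. Of the 12, 9 were called higher (75%), beside 23.5% of genes of the same range of levels. MCM7 had the highest listed level of the ring in the libraries labelled siTREX1. It had 347, 328 and 315 CPM there, against 287, 285 and 275 CPM in the siCtrl libraries. No library overlapped between the groups (log2 fold change 0.23, standard error 0.041, edgeR adjusted p = 0.00817). MCM5 rose on the log2 scale by 0.27 and MCM2 by 0.17, while MCM3 and MCM6, of the same ring, had log2 fold changes of 0.06 and 0.02 with 95% intervals that lay within 0.2 of 0. MCM7 was the first and MCM3 the second of the ring by level in the libraries labelled siTREX1 and the reverse held in the siCtrl libraries, where MCM7 and MCM3 averaged 282 and 298 CPM with overlapping libraries. Among the GINS subunits, which join CDC45 and the ring, GINS3 had 36.0, 33.3 and 39.2 CPM in the libraries labelled siTREX1, against 23.3, 27.2 and 24.1 CPM in the siCtrl libraries. Its 1.46-fold change was the largest of the complex (log2 fold change 0.54, standard error 0.086, edgeR adjusted p = 0.00521), ahead of GINS4 (0.35), GINS1 (0.29) and GINS2 (0.18). MCM10, which aids helicase activation, and CDC45 rose on the log2 scale by 0.31 and 0.23. Of the 15 alternatives tried, the call of GINS2 was lost under 9 and the calls of MCM10 and GINS4 under 6 each.

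Of the polymerase genes, 3 of 10 were higher (30%) and 1 was lower (10%), with a median of -0.02. Among all genes of the same range of levels 23.5% were higher and 17.8% lower, so these shares were near the background. POLE, the catalytic subunit of the leading-strand polymerase, had 76.2, 77.7 and 71.1 CPM in the libraries labelled siTREX1, against 54.7, 55.8 and 56.4 CPM in the siCtrl libraries. Every library labelled siTREX1 was higher (log2 fold change 0.43, standard error 0.044, edgeR adjusted p = 0.00111; 0.42 without the library labelled siTREX1 replicate 1). POLD1, the catalytic subunit of polymerase delta, went the other way, with 35.6, 39.2 and 33.3 CPM in the libraries labelled siTREX1, against 41.4, 44.4 and 45.7 CPM in the siCtrl libraries. The groups did not overlap, and POLD1 fell by 0.28 on the log2 scale (standard error 0.073, edgeR adjusted p = 0.0293), but with the GC trend of each library removed the value was -0.09 (edgeR adjusted p = 0.229). The call was also lost without replicate 1 or 3 labelled siTREX1 and without siCtrl replicate 2 or 3. The ratio of POLE to POLD1 was 2.14, 1.98 and 2.13 in the libraries labelled siTREX1, against 1.32, 1.26 and 1.23 in the siCtrl libraries. POLA2, a regulatory subunit of polymerase alpha, rose on the log2 scale by 0.39, whereas its catalytic partner POLA1 had a log2 fold change of -0.03 with a 95% interval from -0.12 to 0.05. POLD2, POLD3 and PRIM1 had log2 fold changes of -0.04, -0.004 and -0.09 with overlapping libraries.

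The clamp and clamp loading genes were higher for 3 of 9 members (33.3%), beside 23.5% of genes of the same range of levels. PCNA, the sliding clamp that tethers polymerases to DNA, had 1059, 1048 and 1083 CPM in the libraries labelled siTREX1, against 839, 809.7 and 815 CPM in the siCtrl libraries. It was the most abundant member and was higher in every library labelled siTREX1, by 1.29-fold (log2 fold change 0.37, standard error 0.023, edgeR adjusted p = 0.000231; 0.38 without the library labelled siTREX1 replicate 1). FEN1, the flap endonuclease that trims Okazaki fragments, had 159, 153 and 156 CPM in the libraries labelled siTREX1, against 114, 119.9 and 113 CPM in the siCtrl libraries. The gap between groups was again wider than the spread within either (log2 fold change 0.43, standard error 0.034, edgeR adjusted p = 0.000464). RFC3, a clamp loader subunit, rose on the log2 scale by 0.22, and the other loader subunits RFC1, RFC2, RFC4 and RFC5 had log2 fold changes of -0.08, 0.03, -0.07 and 0.03 that passed no threshold. LIG1, the ligase that seals Okazaki fragments, and DTL, a substrate receptor that marks proteins for destruction on chromatin-bound PCNA, had log2 fold changes of 0.12 and 0.16, also not called.

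In the single-strand binding and fork protection group 4 of 6 members were higher (66.7%), beside 23.5% of genes of the same range of levels. TIPIN, a partner of TIMELESS at the fork, had 35.8, 36.6 and 38.0 CPM in the libraries labelled siTREX1, against 23.1, 23.1 and 23.3 CPM in the siCtrl libraries. This was a 1.59-fold change with no overlap (log2 fold change 0.66, standard error 0.046, edgeR adjusted p = 0.000328; 0.69 without the library labelled siTREX1 replicate 1). TIMELESS itself averaged 78.6 ± 3.44 CPM in the libraries labelled siTREX1 and 76.1 ± 3.05 CPM in the siCtrl libraries (SD, n = 3 each), a log2 fold change of 0.05 with a 95% interval from -0.07 to 0.16. CLSPN, the checkpoint mediator claspin, had 25.5, 30.0 and 27.4 CPM in the libraries labelled siTREX1, against 18.9, 19.6 and 19.2 CPM in the siCtrl libraries. It was higher in all 3 (log2 fold change 0.52, standard error 0.073, edgeR adjusted p = 0.00324). Of the single-strand binding complex, RPA3 rose on the log2 scale by 0.17 and RPA2 by 0.10, and RPA1 had a log2 fold change of -0.04. The call of RPA2 was lost under 9 of the 15 alternatives tried and that of RPA3 under 4.

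Nucleotide supply genes were higher for 3 of 4 members (75%), beside 23.5% of genes of the same range of levels. RRM2, the regulated subunit of ribonucleotide reductase, had 181, 192 and 196 CPM in the libraries labelled siTREX1, against 139.9, 141 and 137 CPM in the siCtrl libraries. All libraries labelled siTREX1 were higher (log2 fold change 0.44, standard error 0.036, edgeR adjusted p = 0.00056; 0.48 without the library labelled siTREX1 replicate 1). RRM1, the large subunit, rose on the log2 scale by 0.15, so that the ratio of RRM2 to RRM1 was 0.927, 0.963 and 0.932 in the libraries labelled siTREX1, against 0.751, 0.802 and 0.754 in the siCtrl libraries. The call of RRM1 was lost under 5 of the 15 alternatives. TYMS, thymidylate synthase, had 648, 652 and 656 CPM in the libraries labelled siTREX1, against 564, 564 and 566 CPM in the siCtrl libraries. With almost no spread within a group, its 1.16-fold change had a standard error of 0.018 on the log2 scale (log2 fold change 0.21, edgeR adjusted p = 0.000616). TYMSOS is an antisense gene beside TYMS, and whether the counting used strand is not stated, so reads of both may be mixed. TK1, thymidine kinase, had 99.7, 85.7 and 103 CPM in the libraries labelled siTREX1, against 89.8, 89.9 and 90.0 CPM in the siCtrl libraries, and the groups overlapped. Its log2 fold change was 0.09 (edgeR adjusted p = 0.347), and 0.17 without the low library labelled siTREX1 replicate 2 (edgeR adjusted p = 0.0204). Without replicate 1 labelled siTREX1 it was 0.07 (edgeR adjusted p = 0.581), and TK1 was called under 1 of the 15 alternatives.

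Of the 3 chromatin assembly genes tested, CHAF1A and CHAF1B, subunits of the histone chaperone CAF-1, were called higher. This was 66.7%, beside 23.5% of genes of the same range of levels. CHAF1A was called under all 15 alternatives tried. CHAF1A had 128, 127 and 122 CPM in the libraries labelled siTREX1, against 103, 103 and 101 CPM in the siCtrl libraries. These did not overlap (log2 fold change 0.30, standard error 0.031, edgeR adjusted p = 0.00121), and CHAF1B had a log2 fold change of 0.13 (edgeR adjusted p = 0.0399) whose call was lost under 10 of the 15, among them leaving out any 1 of the 6 libraries. SLBP, which binds the stem-loop of histone mRNA, had a log2 fold change of 0.05 with a 95% interval from -0.05 to 0.16.

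Summed over its members, each group but the polymerases was higher in every library labelled siTREX1 than in every siCtrl library. The sum of all 52 genes was 6476, 6345 and 6524 CPM in the libraries labelled siTREX1, against 5695, 5609 and 5623 CPM in the siCtrl libraries. The ratio of the means was 1.14, and it was 1.16 on library totals alone. By group it was 1.22 for origin licensing, 1.19 for the clamp, 1.17 for nucleotide supply, 1.15 for the helicase, 1.10 for chromatin assembly and 1.09 for single-strand binding. The polymerases had a ratio of 1.02 with overlapping libraries. PCNA made up 53.1% of the clamp sum and TYMS 57.5% of the nucleotide supply sum. Without PCNA and TYMS, the sum of the other 50 genes had a ratio of 1.11, and without MCM4 the helicase ratio was 1.12. Sums of other gene lists described below also separated in every library. Their ratios were 1.12 for S-phase regulators, 1.09 for further origin firing and fork genes, 1.08 for further chromatin assembly genes and 1.05 for mitosis genes. Only the further nucleotide supply genes overlapped, with a ratio of 1.

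**Figure D3:**
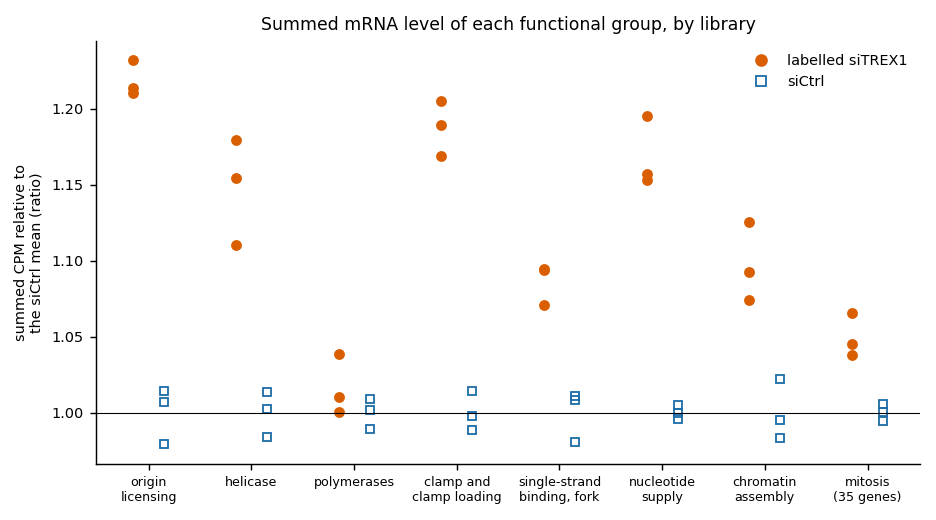
Summed CPM of each functional group in each library, divided by the mean of the 3 siCtrl libraries, with filled circles for the libraries labelled siTREX1 left of open squares for siCtrl, and the 35 mitosis genes at the right. Origin licensing stands highest with a ratio of means of 1.22, and the polymerases overlap with a ratio of 1.02; the vertical axis does not start at 0.

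Several partner genes differed in how far they moved. Besides the pairs above, the ratio of TIPIN to TIMELESS was 0.472, 0.444 and 0.490 in the libraries labelled siTREX1, against 0.297, 0.297 and 0.321 in the siCtrl libraries, and that of FEN1 to LIG1 was 4.09, 4.32 and 4.41, against 3.33, 3.46 and 3.54. A ratio within a library does not depend on how libraries are scaled. These pairs were chosen after their values were seen, so their separation is a description. For all complexes examined other than MCM2 to MCM7, the order of the subunits by mean level was the same in both groups.

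**Figure D4:**
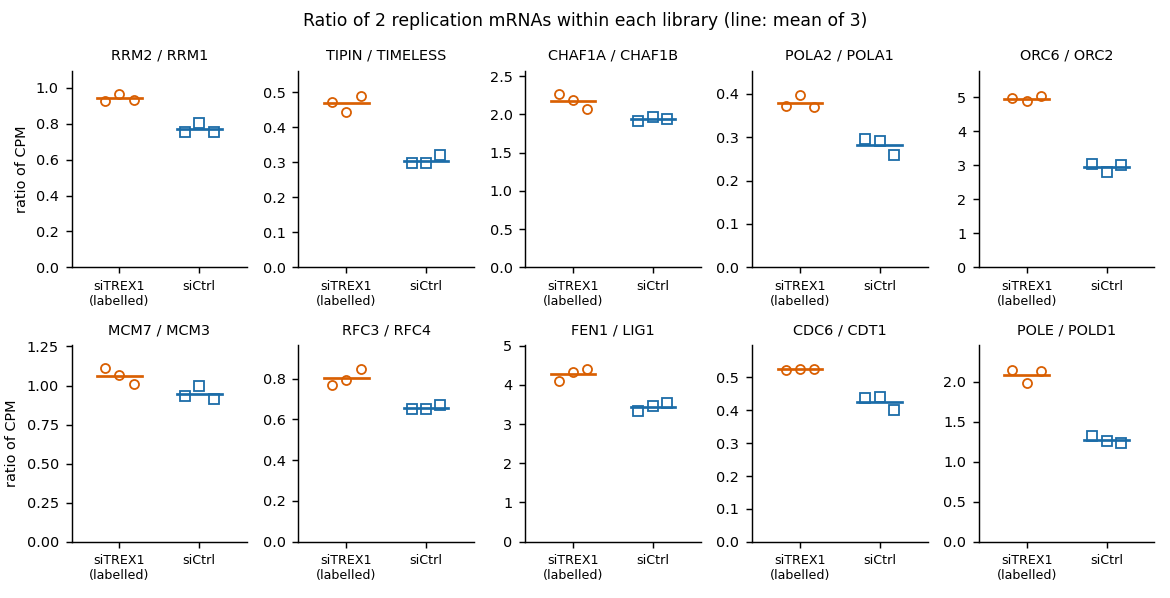
Ratio of the CPM of 2 replication genes within each library for 10 pairs, with the libraries labelled siTREX1 left of siCtrl and lines at the mean of 3. None of the pairs overlaps between the groups; POLE to POLD1 averages 2.09 in the libraries labelled siTREX1 and 1.27 in the siCtrl libraries.

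For 5 genes the spread within a group was far wider than for the rest. The coefficient of variation was above 15% in at least 1 group for MCM4, ORC4, PRIM2, POLE2 and WDHD1, and 9.47% at most for the other 47. MCM4 had 85.4, 26.3 and 80.0 CPM in the libraries labelled siTREX1, against 19.0, 25.8 and 43.8 CPM in the siCtrl libraries. The groups overlapped, and its log2 fold change of 1.12 was not called (standard error 0.50, edgeR adjusted p = 0.143). Without the library labelled siTREX1 replicate 2 it was 1.49 (edgeR adjusted p = 0.0316), and without replicate 1 labelled siTREX1 it was 0.85 (edgeR adjusted p = 0.331). MCM4 was called under 1 of the 15 alternatives. PRIM2, the large primase subunit, had 8.97, 5.16 and 10.2 CPM in the libraries labelled siTREX1, against 3.17, 2.70 and 4.73 CPM in the siCtrl libraries. It was called higher (log2 fold change 1.19, standard error 0.32, edgeR adjusted p = 0.034), and the call was lost without any 1 of 4 libraries, replicates 1 and 3 labelled siTREX1 and siCtrl replicates 1 and 2. WDHD1, which links polymerase alpha to the helicase, had 22.1, 9.76 and 13.5 CPM in the libraries labelled siTREX1, against 27.7, 27.6 and 28.7 CPM in the siCtrl libraries. All 3 were below the siCtrl range, with a log2 fold change of -0.88 that just missed the threshold (edgeR adjusted p = 0.0513). It was -1.27 without the library labelled siTREX1 replicate 1 (edgeR adjusted p = 0.00565). Over the 15 alternatives it ran from -1.27 to -0.645, and WDHD1 was called lower under 5 of them. POLE2 had a log2 fold change of 0.66 and ORC4 of -0.20, neither called.

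The table gives 1 transcript per gene symbol, and for 3 of these 5 genes it was a short one. The transcript listed for MCM4 is 366 nt long and annotated as subject to nonsense-mediated decay, that for ORC4 is a 611 nt retained intron and that for PRIM2 is 375 nt with 277 nt of coding sequence out of 1527 nt in the longest form. These 3 were the only listed transcripts under 700 nt. POLE2 and WDHD1 had listed transcripts of 1776 and 3722 nt. Of all 52 genes, 35 were listed by the transcript with the longest coding sequence of the gene. Without the 5 genes of wide spread, a choice made after their values were seen, 27 of 47 genes were higher and 1 lower, with a median of 0.17 and a ratio of sums of 1.14.

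**Figure D5:**
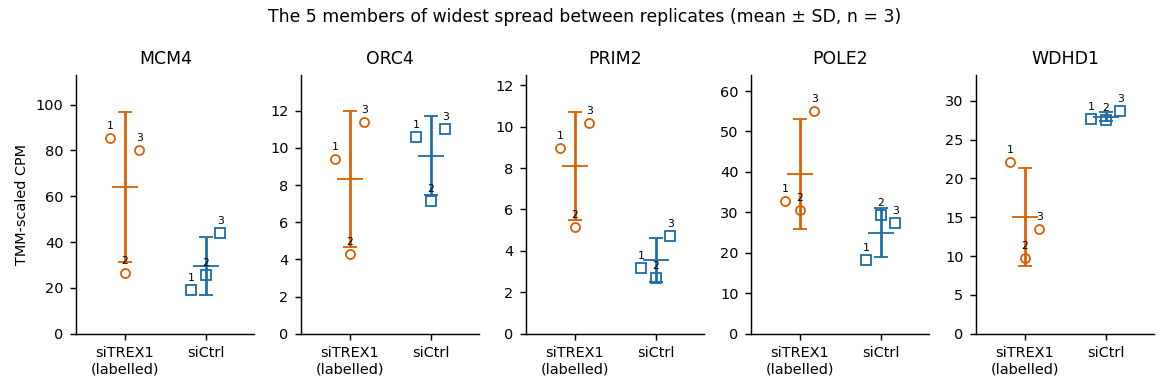
CPM of MCM4, ORC4, PRIM2, POLE2 and WDHD1 in each library, numbered by replicate, with the libraries labelled siTREX1 left of siCtrl and bars for the mean ± SD (n = 3 each). Only WDHD1 has a narrow siCtrl group, 27.6 to 28.7 CPM, with all 3 libraries labelled siTREX1 below it.

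Of the 23 genes not called, 12 had a 95% interval of the log2 fold change that lay within 0.2 of 0: CDT1, MCM3, MCM6, POLA1, POLD2, POLD3, RFC2, RFC4, RFC5, RPA1, TIMELESS and SLBP. For the others the interval reached beyond 0.2 on at least 1 side.

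Other genes of the same pathways, from lists set beside the 52, moved in both directions. Among 31 further origin firing and fork genes, 12 were higher (38.7%) and 1 lower (3.23%), with a median of 0.15. Of all genes tested 17.8% were higher and 15.5% lower. CDC7, the kinase that fires origins, had 46.6 ± 1.93 CPM in the libraries labelled siTREX1 and 33.8 ± 0.94 CPM in the siCtrl libraries (SD, n = 3 each; log2 fold change 0.46). MCMBP, an MCM-binding protein, rose on the log2 scale by 0.31, TOP1, which relaxes DNA ahead of the fork, by 0.37, and DSCC1, of an alternative clamp loader, by 0.34, while ATR, the checkpoint kinase, fell by 0.38. Among 30 further nucleotide supply genes, 4 were higher (13.3%) and 5 lower (16.7%), with a median of -0.02, close to the median over all genes tested. The shares were also near the 17.8% and 15.5% of all genes tested. UMPS, which makes UMP, had 36.2 ± 1.90 CPM in the libraries labelled siTREX1 and 19.9 ± 0.85 CPM in the siCtrl libraries (SD, n = 3 each; log2 fold change 0.86), and DTYMK and NME1 rose on the log2 scale by 0.29 and 0.20. CAD, PPAT, PRPS2 and IMPDH2, of pyrimidine and purine synthesis, fell on the log2 scale by 0.24, 0.28, 0.17 and 0.10. Chromatin assembly genes beyond the list were higher for 7 of 18 (38.9%) and lower for 2 (11.1%), beside the same 17.8% and 15.5%. DNAJC9, a histone chaperone, had a log2 fold change of 0.59 and HELLS, a chromatin remodeller, 0.46, and ASF1B and TONSL had -0.19 and -0.32.

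S-phase regulators were higher for 9 of 20 (45%) and lower for 1 (5%), with a median of 0.22. Of genes in the replication genes' range of levels 23.5% were higher and 17.8% lower. CCNE2, a cyclin of the G1 to S transition, rose on the log2 scale by 0.77, E2F3 by 0.68, E2F4 by 0.42 and TFDP1, the partner of E2F factors, by 0.27, while E2F5 fell by 0.41. Of 35 mitosis genes, 10 were higher (28.6%) and 5 lower (14.3%), with a median of 0.04. These shares were near the 23.5% and 17.8% of genes in the replication genes' range of levels. CDCA8 rose on the log2 scale by 0.74, UBE2C by 0.39, NDC80 by 0.36 and PLK1 by 0.25. TOP2A, CENPF, BUB1B and ESPL1 fell on the log2 scale by 0.20, 0.29, 0.14 and 0.41. The difference between the replication and mitosis genes was not tested.

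Promoters of the replication genes were compared for short words that the list did not use. RefSeq gave a promoter for 46 of the 53 genes, 250 bases before to 50 bases after the start nearest to the listed transcript. The words TTTNGCGC and TTCCCGC, both of E2F type, were searched on both strands, as were CCAAT and the CHR words TTTGAA and TTTAAA. At least 1 E2F word was present in 65.2% of the 46 promoters, in 13% of those of 9983 protein-coding genes tested and in 8.13% of all 35116 RefSeq promoters. CCAAT was present in 56.5%, 37.2% and 34.6%, and a CHR word in 8.7%, 14.7% and 24%. The share with an E2F word was 66.7% of 24 genes called higher and also 66.7% of 21 genes not called. A match is a description of the letters and not a bound site.

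The 150 bases before the start are shown for 6 genes, chosen after the values were seen: TIPIN, ORC6, POLE, RRM2 and PCNA are members with changes past the threshold, and MCM6 is one with E2F words and no call. Capitals mark TTTNGCGC and CCAAT words on either strand, and the sequences are from RefSeq on GRCh38.p14, read 5′ to 3′ along the gene. The windows are chr15:66356686-66356835 on the minus strand for TIPIN, chr16:46689509-46689658 on the plus strand for ORC6 and chr12:132687343-132687492 on the minus strand for POLE. They are chr2:10122589-10122738 on the plus strand for RRM2, chr20:5119959-5120108 on the minus strand for PCNA and chr2:135876444-135876593 on the minus strand for MCM6.
TIPIN: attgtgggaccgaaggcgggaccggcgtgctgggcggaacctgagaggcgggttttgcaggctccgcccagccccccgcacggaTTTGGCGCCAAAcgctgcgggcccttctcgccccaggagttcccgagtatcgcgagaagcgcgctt
ORC6: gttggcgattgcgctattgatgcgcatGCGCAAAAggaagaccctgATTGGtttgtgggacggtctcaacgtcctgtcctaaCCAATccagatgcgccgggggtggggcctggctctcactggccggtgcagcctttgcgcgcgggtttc
POLE: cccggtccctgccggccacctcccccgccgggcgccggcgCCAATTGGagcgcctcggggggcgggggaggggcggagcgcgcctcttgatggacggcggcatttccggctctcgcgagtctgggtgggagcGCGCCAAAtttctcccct
RRM2: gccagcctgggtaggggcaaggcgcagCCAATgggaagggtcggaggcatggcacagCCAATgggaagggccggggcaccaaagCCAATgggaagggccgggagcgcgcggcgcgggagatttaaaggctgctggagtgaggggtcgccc
PCNA: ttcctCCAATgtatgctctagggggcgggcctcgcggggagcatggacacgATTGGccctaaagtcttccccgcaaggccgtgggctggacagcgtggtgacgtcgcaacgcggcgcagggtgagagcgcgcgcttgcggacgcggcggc
MCM6: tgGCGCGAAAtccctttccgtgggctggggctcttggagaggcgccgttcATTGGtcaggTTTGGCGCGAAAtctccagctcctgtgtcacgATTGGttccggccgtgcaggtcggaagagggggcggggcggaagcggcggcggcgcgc
In TIPIN the run TTTGGCGCCAAA holds a TTTNGCGC word on each strand, which overlap, and the E2F words of MCM6 overlap in the same way. RRM2 has 3 CCAAT words and PCNA 2, and neither has an exact match to an E2F word in this window. MCM6 has 3 E2F words here. Whether these words bear on the changes of the genes was not tested.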

How the data were processed

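RNA was sequenced from H69AR cells in 3 libraries labelled siTREX1 and 3 siCtrl libraries. The authors quantified reads with kallisto and deposited estimated counts, 1 listed transcript for each symbol, that tximport made as scaledTPM. They carry each library's depth without a dependence on transcript length, and differ from read numbers. FastQC and hg19 appear in the submitters' processing notes, and for kallisto's version and annotation the entry is: not given in the sources used here. A row without a symbol, 0.0925% to 0.109% of each library, was left out. Estimated counts were rounded, and edgeR 4.0.16 under R 4.3.3 gave the tests (TMM, filterByExpr with a minimum count of 10, robust quasi-likelihood test, Benjamini-Hochberg over 13221 genes), after the test was tried on simulated data. The members and lists were chosen with earlier results of these data known. Named genes were all members, TREX1, and up to 4 called genes per direction of each other list, by p. A few genes that this rule or the marker list takes are not reported here. Transcript types came from GENCODE 29 on GRCh38, matched by identifier with no coordinates converted, and promoters from RefSeq. Alternatives were RLE factors, library totals, other count filters, DESeq2 1.42.0, limma-voom (limma 3.58.1), a replicate block, removal of a GC trend, and leaving out each library; leaving out members of wide spread or high level, and limiting promoters to starts within 1000 bases, were added after the data were seen.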

Additional observations from a re-analysis of the deposited data

How the results depend on the processing

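The median log2 fold change of the replication genes ran from 0.16 to 0.19 over the 15 alternatives. The count called higher was 28 with RLE factors, library totals, at least 10 counts in all libraries and DESeq2, 27 with limma-voom and with the GC trend removed, 25 with no filter, and 21 to 23 without any 1 library. The count called lower was 2 with at least 10 counts in all libraries, DESeq2 and limma-voom (WDHD1 added), 3 with the GC trend removed (ORC2, RFC4 and WDHD1, without POLD1; CDT1 and LIG1 were then higher, with log2 fold changes of 0.26 and 0.24), and 0 to 1 without any 1 library. Over all genes tested, the count called higher was 2386 with RLE factors, 2503 with library totals, 2680 with DESeq2 and 2387 with limma-voom. It was 2420 with at least 10 counts in all libraries, 2454 with the GC trend removed and 2146 of 18491 with no filter. Without any 1 library it ran from 1828 to 2000, and the count called lower from 1398 to 1725. Of the 28 genes, 19 were called higher under all 15 alternatives. ORC1, MCM10, GINS2, GINS4, PRIM2, RPA2, RPA3, RRM1 and CHAF1B were not. Correlations of same-numbered libraries across the groups were 0.018, 0.026 and 0.025, and those of differently numbered libraries ran from -0.043 to 0.0175. All were near 0, and they do not decide whether replicate numbers pair the samples. With the replicate block 22 genes were called higher and 0 lower, and over all genes 1901 higher and 1518 lower. With the block and the GC trend removed, 23 were higher and 1 lower, and over all genes 2003 higher and 1538 lower. The cause of these changes was not tested. With starts limited to 1000 bases, 66.7% of 45 promoters held an E2F word. The 3 libraries per group limit which small changes can be called. Protein sequences were not used here, so a planned search for PCNA-binding motifs was not run.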
